A study of Mus musculus with 15 samples.

Results

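The potassium channel genes were taken as every gene on the array whose symbol begins with Kcn, the root of the systematic names of potassium channel subunits. Probe sets that name exactly 1 gene were used, and for a gene with several the brightest by mean over all arrays, which gave 90 genes of 22180. They comprised 36 voltage-gated, 14 inward-rectifier, 13 two-pore and 8 calcium- or sodium-activated pore subunits, 17 auxiliary subunits and regulators, and 2 noncoding transcripts. Total RNA from the aorta of DBA/2NCrl mice, an inbred strain, was hybridised to expression arrays. The mice were 8 weeks old when feeding began and were fed for 5 days, on chow holding 7.0 g/kg phosphorus or on a diet rich in phosphate holding 20.2 g/kg. The groups were abdominal aorta on high phosphate (4 arrays), abdominal aorta on chow (4), thoracic aorta on high phosphate (3) and thoracic aorta on chow (4). The labels call the arrays biological replicates and give no sex.

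Potassium channels let potassium leave the cell along its gradient and so pull the membrane potential down. In vascular smooth muscle this closes voltage-gated calcium channels and relaxes the wall, and the large-conductance calcium-activated channel, voltage-gated delayed rectifiers and the ATP-sensitive channel are the best known carriers of that current. In neurons and chromaffin cells, other voltage-gated and calcium-activated subunits set firing threshold and repolarise the action potential. From such textbook roles the members were split by where each subunit is best known. There were 9 smooth muscle genes, 39 neuronal, 11 striated muscle, 8 epithelial, 5 immune, endothelial or glial, and 18 others.

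The windows upstream of 3 members are shown because the results below turn on them. Kcna4 had the largest diet change of the 90, Kcna5 is a smooth muscle channel gene that was called over both segments, and Kcnmb4 differed between segments. Each window holds the 250 bases before the RefSeq start on GRCm38.p6, written 5′ to 3′ in the direction of transcription. The Kcna4 window lies at chr2:107290339-107290588 on the plus strand, the Kcna5 window at chr6:126535556-126535805 on the minus strand and the Kcnmb4 window at chr10:116473524-116473773 on the minus strand. Capitals mark GGGCGG or its reverse complement, the GC-box core, in Kcna4 and Kcnmb4, and ACANNNTGT, the core pattern of the glucocorticoid response element, in Kcna5.
Kcna4: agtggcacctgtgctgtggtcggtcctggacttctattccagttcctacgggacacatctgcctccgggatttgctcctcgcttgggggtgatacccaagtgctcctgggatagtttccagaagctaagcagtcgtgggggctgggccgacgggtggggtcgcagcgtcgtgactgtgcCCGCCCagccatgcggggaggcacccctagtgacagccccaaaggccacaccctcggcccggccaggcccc
Kcna5: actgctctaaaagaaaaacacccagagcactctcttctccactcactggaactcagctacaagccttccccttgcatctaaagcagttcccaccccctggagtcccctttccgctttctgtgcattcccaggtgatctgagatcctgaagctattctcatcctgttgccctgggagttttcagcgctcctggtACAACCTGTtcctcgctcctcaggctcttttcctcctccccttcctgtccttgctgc
Kcnmb4: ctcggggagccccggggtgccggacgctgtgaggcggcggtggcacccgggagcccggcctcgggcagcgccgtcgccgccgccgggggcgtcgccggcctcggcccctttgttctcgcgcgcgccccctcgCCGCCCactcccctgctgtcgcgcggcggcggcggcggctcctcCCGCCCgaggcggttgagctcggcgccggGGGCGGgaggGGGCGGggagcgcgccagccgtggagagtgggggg
The Kcna4 window held 1 match and the Kcnmb4 window 4 matches to GGGCGG, with GC contents of 65.2% and 83.6%. Windows were found for 70 of the 90 genes, 95 windows in all. GGGCGG occurred on either strand in 44.2% of these windows and in 32.7% of the 32851 windows of all genes. ACANNNTGT occurred in 5.26% against 5.84%, the E-box CACGTG in 6.32% against 6.02%, TATAAA in 2.11% against 12.4%, and TTCAGCACC, the core of the element bound by the neuronal repressor REST, in 1.05% (the Kcnh6 window) against 0.301%. The CArG box, which serum response factor binds at many contractile genes, was found in 0 of the 95 windows and in 1.47% of all. These are letter matches in short windows, and binding was not measured.

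All values are log2 intensities of 1 probe set, given with the SD over a group's arrays. Levels of different probe sets are not compared, except where dim and bright ones are told apart. Changes are log2 differences ± SE from 1 limma model over all 22180 genes, and a gene was called at an adjusted p under 0.05 (Benjamini-Hochberg over all genes, two-sided). There were no detection calls, so it is unknown how far a dim gene lay above background. Across the 6 comparisons made, 24 of the 90 genes were called in at least 1 (26.7%, against 22.7% of all genes), and 66 in none.

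The abdominal and thoracic pieces also differed in their cell type markers, and this moves with several results below. In bulk tissue fewer cells of a type and less RNA per cell cannot be told apart. Smooth muscle contractile genes (12 measured) averaged 8.23 to 8.87 per array in the abdominal high-phosphate group, 8.32 to 8.92 on abdominal chow, 9.27 to 9.51 on thoracic high phosphate and 9.15 to 9.35 on thoracic chow. Sympathetic and chromaffin genes (13 measured) averaged 7.62 to 9.03 over the abdominal and 5.55 to 6.74 over the thoracic arrays. Brown adipocyte genes (12 measured) averaged 7.48 to 7.98 in the abdominal high-phosphate group and 8.88 to 9.32 on abdominal chow. Cardiac genes were high in the thoracic arrays (7.99 to 8.96, against 5.76 to 6.28 in the abdominal ones). Hepatocyte genes were high in abdominal high-phosphate arrays 3 and 4 (8.62 and 10.67). T and NK cell genes were high in abdominal high-phosphate arrays 1, 2 and 4 and chow arrays 2 and 4.

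The first question was whether 5 days of high phosphate changed potassium channel genes. In the abdominal segment 2 of the 90 were called (2.22%), against 7.01% of all genes: Kcna4 fell, as did 5.06% of all genes, and Kcnk5 rose, as did 1.95%. The median change of the 90 genes was 0.01, and that of all genes -0.01. In the thoracic segment 0 of 90 were called by limma, against 2.47% of all genes (1.39% higher and 1.08% lower), while 8 had an unadjusted p under 0.05. Averaged over both segments 5 were called (5.56%), against 10.7% of all genes: Kcnma1, Kcna5 and Kcnk13 rose (4.53% of all genes did), and Kcna4 and Kcnk4 fell (6.18%). In each of these comparisons the share among the channel genes lay below that among all genes. The channel genes were also dimmer, with a median gene mean of 5.50 against 6.05 for all genes, and 29 of the 90 lay above the latter. With the dimmest genes removed, 60 channel genes were tested. Of these 1 was called in the abdominal segment, 1 in the thoracic segment and 6 on average. Of all genes left 11.3%, 4.47% and 16.8% were. How far brightness bears on these shares was not tested further. The average shares its arrays with the changes of the single segments and is not separate evidence.

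Among the smooth muscle genes, 0 of 9 were called in either segment alone and 2 of 9 over both. Of all genes 7.01% were called in the abdominal segment, 2.47% in the thoracic segment and 10.7% over both. Kcnma1, the pore subunit of the large-conductance calcium-activated channel, read 9.28, 9.51, 9.33 and 9.48 in abdominal chow arrays 1 to 4 and 9.82, 9.60, 9.62 and 9.56 on high phosphate. Its thoracic arrays read 9.25, 9.38, 8.96 and 9.25 on chow and 9.67, 9.72 and 9.31 on high phosphate. The abdominal groups did not overlap, whereas thoracic high-phosphate array 3 lay within the chow range. The average change was 0.30 ± 0.0772 (adjusted p = 0.0179, limma), from 0.25 in the abdominal and 0.36 in the thoracic segment. Without thoracic high-phosphate array 1 or 2 the adjusted p was 0.0526 and 0.0594. A second, dimmer probe set of Kcnma1 changed by -0.06 in the abdominal and 0.45 in the thoracic segment (adjusted p = 0.866 and 0.154).

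Kcna5, a voltage-gated delayed rectifier of arterial smooth muscle, read 5.62, 5.74, 5.33 and 5.85 in abdominal chow arrays 1 to 4 and 5.79, 5.80, 6.33 and 5.85 on high phosphate. Thoracic arrays read 5.69, 5.74, 5.80 and 5.35 on chow and 6.16, 5.98 and 6.33 on high phosphate. Every thoracic high-phosphate array lay above every chow array. In the abdominal segment 1 array, high-phosphate array 3, stood apart and the others overlapped chow. The average change was 0.41 ± 0.107 (adjusted p = 0.0222, limma), with 0.31 in the abdominal and 0.51 in the thoracic segment. Leaving out thoracic high-phosphate array 3 gave an adjusted p of 0.0658, and leaving out abdominal high-phosphate arrays 3 and 4 gave a change of 0.33 (adjusted p = 0.0565).

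The other 7 smooth muscle genes were not called for diet. Kcnmb1, the auxiliary beta subunit that raises the calcium sensitivity of the Kcnma1 channel, read 8.93, 8.66, 8.94 and 8.10 on abdominal chow and 7.88, 7.99, 8.77 and 8.06 on high phosphate. Its abdominal change of -0.48 ± 0.211 was not called (adjusted p = 0.215, limma), and was called without high-phosphate array 3, at -0.68 (adjusted p = 0.0337). That array also had the highest contractile mean of its group, 8.87, against 8.23 to 8.40 in the others. In the thoracic segment Kcnmb1 read 9.46, 9.22, 9.85 and 9.63 on chow and 9.38, 9.23 and 9.66 on high phosphate, a change of -0.11 (95% interval -0.60 to 0.37).

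Kcnj8, the pore of the vascular ATP-sensitive channel, read 7.67, 7.35, 7.38 and 7.30 on abdominal chow and 7.08, 7.09, 7.23 and 6.95 on high phosphate, with no overlap. In the thoracic segment it read 7.62, 7.41, 8.01 and 7.45 on chow and 7.50, 7.36 and 7.31 on high phosphate, with overlap. Its average change of -0.29 ± 0.0900 missed the threshold (adjusted p = 0.0539, limma). Leaving out abdominal high-phosphate array 3, abdominal chow array 4, or thoracic chow array 2 or 4 gave an adjusted p of 0.0414, 0.0489, 0.0356 and 0.0458. Its regulatory partner Abcc9, the sulphonylurea receptor of that channel, is no Kcn gene and rose in the thoracic segment from 9.97 ± 0.0347 (SD, n = 4) to 10.31 ± 0.195 (n = 3), by 0.34 ± 0.0850 (adjusted p = 0.0484). That call was lost when any array other than high-phosphate array 1 was left out (adjusted p up to 0.209). Its average change was 0.28 (adjusted p = 0.00515).

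Kcnab1, a cytosolic beta subunit of voltage-gated channels, read 6.44, 6.56, 6.15 and 5.99 on abdominal chow and 5.87, 6.04, 6.09 and 6.02 on high phosphate. Chow array 4 lay within the high-phosphate range. It changed by -0.28 in the abdominal and by 0.02 in the thoracic segment (adjusted p = 0.182 and 0.973). Without abdominal chow array 4, its lowest chow array at 5.99, the abdominal change was -0.38 (adjusted p = 0.0489). The auxiliary subunit gene Kcne4 read 5.44 to 6.24 over the 15 arrays, the inward rectifier gene Kcnj2 4.84 to 5.28 and the two-pore channel gene Kcnk6 5.91 to 6.69. Their average diet changes were -0.17, -0.01 and 0.02. Kcnq5, a slowly activating voltage-gated channel found in arteries and in neurons, had an average change of 0.04 ± 0.125 (adjusted p = 0.901).

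**Figure D1:**
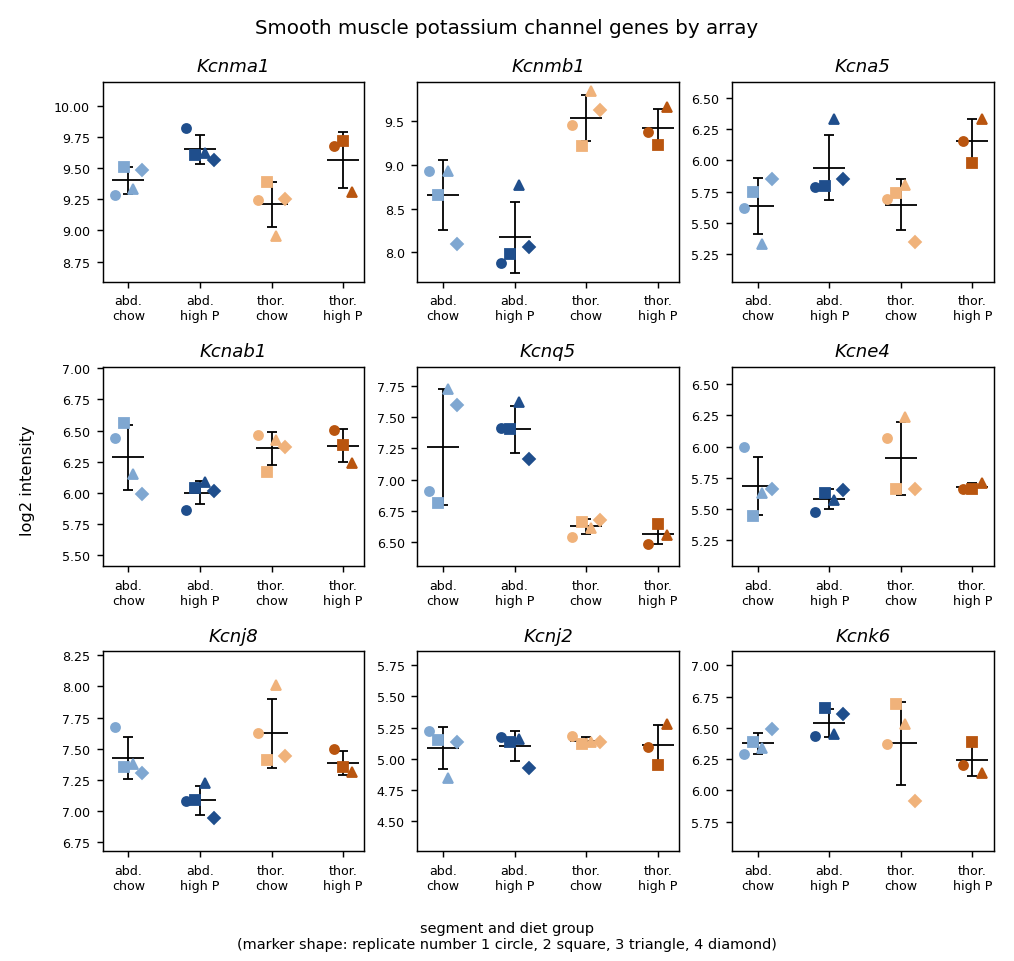
Log2 intensity (vertical axis, its own scale in each panel) of the 9 smooth muscle potassium channel genes on each of 15 arrays, by segment and diet. Points are arrays, long bars group means and whiskers 1 SD. Kcnmb1 is higher on every thoracic array than on any abdominal one, and Kcnq5 lower.

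The largest diet change among the 90 genes was that of Kcna4, which encodes a voltage-gated subunit of fast-inactivating A-type current and is best known in neurons and heart. It read 11.30, 11.13, 10.99 and 10.83 in abdominal chow arrays 1 to 4 and 9.93, 9.80, 9.84 and 9.90 on high phosphate. Its thoracic arrays read 11.24, 11.23, 10.80 and 11.10 on chow and 10.66, 10.66 and 9.67 on high phosphate. The groups overlapped in neither segment, and thoracic high-phosphate array 3 lay far below the other two of its group. In the abdominal segment Kcna4 fell by 1.20 ± 0.179 on the log2 scale (2.29-fold lower, adjusted p = 0.000744, limma). The thoracic change of -0.76 ± 0.193 just missed the threshold (adjusted p = 0.0517) and passed it without thoracic high-phosphate array 1 (-0.93, adjusted p = 0.0338), high-phosphate array 2 (-0.93, 0.0481) or chow array 3 (-0.86, 0.0398). The difference between the segments' changes, -0.43 ± 0.264, was not called (adjusted p = 0.880). The average change was -0.98 (adjusted p = 0.00018). Between segments on high phosphate Kcna4 differed by 0.46 (adjusted p = 0.131), and by 0.79 (adjusted p = 0.00218) without thoracic high-phosphate array 3.

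These Kcna4 values come from its brighter probe set. The other, dimmer one changed by -0.03 ± 0.133 in the abdominal and 0.02 ± 0.144 in the thoracic segment (adjusted p = 0.946 and 0.974, limma). With the mean of both, the abdominal change was -0.61 (adjusted p = 0.00178). Kcna4 also moved with the brown adipocyte genes, of which 10 of 12 fell in the abdominal and 5 of 12 in the thoracic segment (5.06% and 1.08% of all genes did). Their mean was 7.48, 7.73, 7.98 and 7.78 in abdominal high-phosphate arrays 1 to 4 and 8.80, 8.64 and 8.20 in the thoracic ones, against 9.27 to 9.58 on thoracic chow. Thoracic high-phosphate array 3 was thus the lowest of its group for both. In the abdominal high-phosphate group the orders differed, and array 1 had the lowest mean but the highest Kcna4 value, 9.93. With the brown adipocyte mean as a covariate the abdominal change of Kcna4 was 0.18 (adjusted p = 0.944, limma). In that comparison 0 of 22180 genes were called. The brown adipocyte mean did not overlap between diets in either segment, so this fit can hardly separate it from diet. The mean of 11 adventitial fibroblast genes did not overlap between the abdominal diets either. With that mean as a covariate, added after seeing the data, the abdominal change of Kcna4 was -0.72 (adjusted p = 0.789, limma). Without the 5 abdominal arrays high in lymphocyte genes it was -1.31 (adjusted p = 0.154), resting on 1 high-phosphate array assumed to vary like the others. What part these markers have in the result was not tested further.

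**Figure D2:**
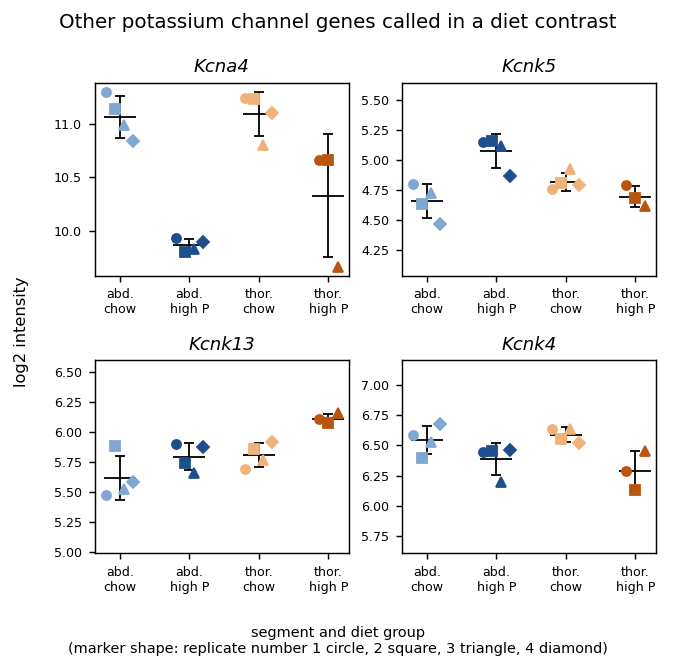
Log2 intensity (vertical axis, its own scale in each panel) of the other 4 potassium channel genes called for diet, by segment and diet. Points are arrays, long bars group means and whiskers 1 SD. Kcna4 is lower on every high-phosphate array than on any chow array, and Kcnk5 is higher on abdominal high phosphate than on abdominal chow.

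Among the two-pore channels, which carry background leak current, 1 of 13 was called in the abdominal segment and 2 of 13 over both. Of all genes 7.01% and 10.7% were. Of the 90 genes 6 (6.67%) were called in at least 1 diet comparison, against 11.5% of all genes. Kcnk5, an alkaline-activated channel of renal epithelium, read 4.80, 4.64, 4.73 and 4.47 on abdominal chow and 5.15, 5.16, 5.12 and 4.87 on high phosphate, without overlap. It rose by 0.41 ± 0.0922 there (1.33-fold, adjusted p = 0.0121, limma). Thoracic arrays read 4.76, 4.81, 4.93 and 4.79 on chow and 4.79, 4.68 and 4.61 on high phosphate, a change of -0.12 (adjusted p = 0.673). The difference between the segments' changes was 0.54 ± 0.136 (adjusted p = 0.773, limma), with the only unadjusted p under 0.05 among the 90 genes. The gene lies below the 30th percentile of gene means, so it was not tested once dim genes were removed. With only the abdominal groups fitted its adjusted p was 0.0548, and without the 5 arrays high in lymphocyte genes 0.395.

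Kcnk13, a halothane-inhibited leak channel known from microglia, read 5.47, 5.88, 5.52 and 5.58 on abdominal chow and 5.90, 5.74, 5.66 and 5.87 on high phosphate. In the thoracic segment it read 5.69, 5.86, 5.76 and 5.92 on chow and 6.10, 6.07 and 6.15 on high phosphate. The thoracic groups were apart and the abdominal ones overlapped. Of 10 macrophage genes 6 were called higher over both segments (4.53% of all genes were). Their mean was 7.30 to 7.66 on abdominal chow and 7.70 to 8.00 on abdominal high phosphate. It was 7.40 to 7.53 on thoracic chow and 7.73 to 8.29 on thoracic high phosphate. Their part in the Kcnk13 result was not tested. Its average change was 0.24 ± 0.0697 (adjusted p = 0.0373, limma), and leaving out any array other than abdominal high-phosphate array 3, abdominal chow array 2 or thoracic chow array 4 ended the call (adjusted p up to 0.0851).

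Kcnk4, a mechanosensitive leak channel of neurons, read 6.59, 6.40, 6.53 and 6.68 on abdominal chow and 6.45, 6.46, 6.19 and 6.46 on high phosphate. Its thoracic arrays read 6.64, 6.55, 6.64 and 6.52 on chow and 6.29, 6.13 and 6.46 on high phosphate. Again the thoracic groups were apart and the abdominal ones overlapped. Its average change was -0.23 ± 0.0662 (adjusted p = 0.0388, limma). Leaving out any array other than abdominal high-phosphate array 4, abdominal chow array 2, thoracic high-phosphate array 3 or thoracic chow array 4 ended that call too (adjusted p up to 0.115).

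Of the 11 striated muscle genes 0 were called by limma for diet over both segments, with 3 at an unadjusted p under 0.05, and the changes ran from -0.25 to 0.20. The neuronal list held 2 called of 39 over both segments, Kcna4 and Kcnk4, with a median average change of 0.00. Over both segments 10.7% of all genes were called. In the difference between the segments' diet changes 0 of 90 genes were called by limma, with 0% of all genes called and 1 of the 90 at an unadjusted p under 0.05.

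**Figure D3:**
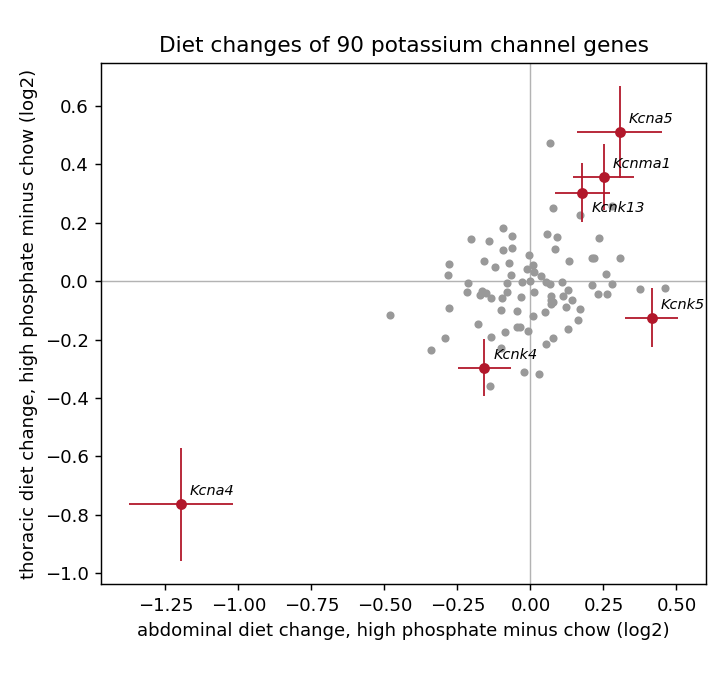
Diet change (high phosphate minus chow, log2) in the abdominal segment (horizontal) against that in the thoracic segment (vertical) for the 90 potassium channel genes, with bars of 1 SE for the 6 called in any diet comparison (red). Kcna4 lies far to the lower left at -1.20 and -0.76, and most genes lie near the origin.

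The second question was how the segments differ. On chow 9 of the 90 genes (10%) were called between thoracic and abdominal aorta, against 4.78% of all genes. Of these, 2 were higher in the thoracic segment (1.76% of all genes were) and 7 lower (3.02%). On high phosphate 17 were called (18.9%), against 13.8% of all genes, with 4 higher (7.57%) and 13 lower (6.25%). Both comparisons, which share no arrays, called 7 of the 90 (7.78%, against 3.67% of all genes). These were 77.8% of the chow list and 41.2% of the high-phosphate list, where over all genes the shares were 76.6% and 26.5%. These were Kcnmb1 and Kcnj15, higher in the thoracic segment, and Kcna1, Kcnq3, Kcnmb4, Kcnn2 and Kcnq5, lower there. The median difference of the 90 genes was 0.02 on chow and -0.02 on high phosphate, and that of all genes 0.03 and 0.04.

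In the smooth muscle list, 1 of 9 genes was higher and 1 lower in the thoracic segment, on each diet. Of all genes 1.76% were higher and 3.02% lower on chow, and 7.57% higher and 6.25% lower on high phosphate. Kcnmb1 averaged 8.66 ± 0.395 (SD, n = 4) on abdominal chow and 9.54 ± 0.266 (n = 4) on thoracic chow, and its array values given above did not overlap between segments. The difference was 0.88 ± 0.211 on chow (1.84-fold, adjusted p = 0.0256, limma) and 1.25 ± 0.228 on high phosphate (2.37-fold, adjusted p = 0.00265). The chow call was lost without abdominal chow array 4 (0.69, adjusted p = 0.0882) or without thoracic chow array 1, 3 or 4 (adjusted p = 0.0547, 0.0802 and 0.0760). Contractile genes moved the same way: 6 of 12 were called higher in the thoracic segment on chow and 12 of 12 on high phosphate. With their mean as a covariate, added after seeing the data, the Kcnmb1 difference was 0.04 on chow and -0.13 on high phosphate (adjusted p = 0.964 and 0.896), with 58 and 8 of 22180 genes called. The contractile mean did not overlap between the segments, so these fits can hardly separate it from segment. Kcnma1, the pore subunit that Kcnmb1 joins, differed by -0.19 ± 0.105 and -0.08 ± 0.113 (adjusted p = 0.338 and 0.672, limma).

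Kcnq5 read 6.91, 6.82, 7.73 and 7.60 in abdominal chow arrays 1 to 4 and 6.54, 6.66, 6.61 and 6.68 in thoracic ones. On high phosphate it read 7.42, 7.41, 7.62 and 7.17 in the abdominal and 6.48, 6.65 and 6.55 in the thoracic segment. The segments did not overlap on either diet, and abdominal chow arrays 1 and 2 lay nearest to the thoracic range. The difference was -0.64 ± 0.170 on chow (adjusted p = 0.0450, limma) and -0.84 ± 0.184 on high phosphate (adjusted p = 0.00790). The chow call was lost when any array other than abdominal chow array 1 or 2 was left out (adjusted p up to 0.158). Its second probe set was also lower in the thoracic segment, by -0.41 and -0.48 on the log2 scale (adjusted p = 0.0476 and 0.0150). Kcnab1 was 0.38 higher in the thoracic segment on high phosphate, without overlap, and missed the threshold (adjusted p = 0.0604). The remaining 6 smooth muscle genes were called on neither diet.

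The neuronal list, with 39 of the 90 genes, held 6 of the 7 lower in the thoracic segment on chow and 7 of the 13 on high phosphate. In that list 0 and 2 were higher. Of all genes 3.02% and 6.25% were lower, and 1.76% and 7.57% higher. Kcnq3, a subunit of the M-current that damps repetitive firing, read 7.07, 6.86, 8.31 and 7.79 in abdominal chow arrays 1 to 4 and 6.20, 5.76, 5.94 and 6.17 in thoracic ones. High-phosphate arrays read 7.84, 7.87, 8.02 and 7.41 in the abdominal and 5.81, 6.26 and 5.95 in the thoracic segment. The segments were apart on both diets, and abdominal chow arrays 1 and 2 were the lowest abdominal arrays. The difference was -1.49 ± 0.249 on chow (2.81-fold, adjusted p = 0.00268, limma) and -1.78 ± 0.269 on high phosphate (3.43-fold, adjusted p = 0.000886), the largest of the 90 genes on either diet.

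Kcna1, a delayed rectifier of axons, read 6.77, 6.67, 7.17 and 6.99 on abdominal chow and 6.00, 6.03, 6.13 and 6.12 on thoracic chow. On high phosphate it read 6.81, 6.96, 6.97 and 6.51 in the abdominal and 5.82, 6.01 and 5.87 in the thoracic segment. The segments were well apart on both diets. Its difference was -0.83 ± 0.116 and -0.92 ± 0.126 (adjusted p = 0.000828 and 0.000418, limma), the lowest adjusted p of the 90 genes on either diet.

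Kcnmb4, the beta subunit of the large-conductance channel in neurons, read 6.05, 5.98, 6.63 and 6.91 on abdominal chow and 5.65, 5.70, 5.63 and 5.54 on thoracic chow. High-phosphate arrays read 6.74, 6.97, 6.74 and 6.61 in the abdominal and 5.47, 5.68 and 5.67 in the thoracic segment. Thoracic arrays lay within a narrow range below all abdominal ones, opposite in direction to Kcnmb1. The difference was -0.76 ± 0.165 on chow and -1.16 ± 0.178 on high phosphate (adjusted p = 0.0151 and 0.000962, limma). Without abdominal chow array 3 or thoracic chow array 4 the chow adjusted p was 0.0518 and 0.0505. A second, dimmer Kcnmb4 probe set differed by -0.10 and -0.07 (adjusted p = 0.695 and 0.782, limma). A further probe set, shared with Kcnmb4os1 and tested apart, differed by -0.09 and -0.19 (adjusted p = 0.635 and 0.201, limma). In the abdominal segment Kcnmb4 changed with diet by 0.37 (adjusted p = 0.217), and by 0.55 without chow array 4 (adjusted p = 0.0247).

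Kcnn2, a small-conductance calcium-activated channel of the afterhyperpolarisation, read 5.46, 4.98, 6.48 and 6.32 on abdominal chow and 4.77, 4.70, 4.71 and 4.97 on thoracic chow. On high phosphate it read 5.82, 6.03, 6.18 and 6.15 in the abdominal and 4.68, 5.23 and 4.90 in the thoracic segment. Abdominal chow array 2 came close to thoracic chow array 4, and thoracic high-phosphate array 2 was the highest thoracic array. The difference was -1.02 ± 0.252 and -1.11 ± 0.272 (adjusted p = 0.0303 and 0.0150, limma). The chow call was lost when any array other than abdominal chow array 1 or 2 was left out (adjusted p up to 0.114), and the high-phosphate call without thoracic array 1 (0.0694).

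Kcnh7, an ether-à-go-go-related channel of the nervous system, read 5.06, 5.12, 6.11 and 6.23 on abdominal chow and 4.60, 4.78, 4.75 and 4.75 on thoracic chow. Its difference on chow was -0.91 ± 0.230 (adjusted p = 0.0342, limma), a call lost when any array other than abdominal chow array 1 or 2 was left out (adjusted p up to 0.118). On high phosphate it was -0.74 ± 0.249 (adjusted p = 0.0610). Kcnh8, of a related voltage-gated family, read 5.43, 5.25, 5.79 and 5.58 on abdominal chow and 4.81, 4.90, 5.15 and 4.77 on thoracic chow. The difference was -0.60 ± 0.112 on chow (adjusted p = 0.00581) and -0.27 ± 0.121 on high phosphate (adjusted p = 0.166). Whether these differences themselves change with diet is the difference of the diet changes, which was called for none of the 90 genes.

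Kcnt1, a sodium-activated channel, read 6.53, 6.45, 6.55 and 6.15 in the abdominal and 5.77, 5.90 and 5.77 in the thoracic segment on high phosphate, without overlap. The difference was -0.61 (adjusted p = 0.0250, limma) and -0.55 on chow (adjusted p = 0.0537). The high-phosphate call was lost without abdominal array 1 or 2 or thoracic array 1 or 3 (adjusted p = 0.0664, 0.0612, 0.0800 and 0.0760), and chow was called without abdominal chow array 1 or 2 (adjusted p = 0.0238 and 0.0289). Its relative Kcnt2 went the other way, 0.76 higher in the thoracic segment on high phosphate (adjusted p = 0.0276). Among the genes called between segments it is the only one whose groups overlapped in the comparison that called it, at 6.53 to 7.58 in the abdominal and 7.51 to 7.95 in the thoracic arrays. Without abdominal array 1 or 2 or thoracic array 1 or 3 its adjusted p was 0.0812, 0.0825, 0.0761 and 0.109.

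The remaining neuronal genes called on high phosphate were 1 higher and 2 lower in the thoracic segment. The G protein-gated inward rectifier gene Kcnj6 was 0.31 higher (adjusted p = 0.0356, limma), a call lost without high-phosphate abdominal array 1, 2 or 4 or thoracic array 2 or 3 (adjusted p up to 0.120). Kcnip4, a calcium-sensing partner of A-type channels, was lower (-0.88, adjusted p = 0.0284), and not called without abdominal array 1 or 2 or thoracic array 1 or 3 (adjusted p = 0.0598, 0.0528, 0.111 and 0.0660). The cytosolic beta subunit gene Kcnab2 was lower (-0.79, adjusted p = 0.0122), and not called without thoracic array 1 (0.0582).

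The neuronal genes lower in the thoracic segment were set beside the sympathetic and chromaffin genes. Of these 11 of 13 were called lower there on chow and 12 of 13 on high phosphate (3.02% and 6.25% of all genes were). That list averaged 7.96, 7.62, 9.03 and 8.78 in abdominal chow arrays 1 to 4, with array 2 lowest, array 1 next, then array 4, and array 3 highest. Kcnq3, Kcnn2, Kcna1 and Kcnh8, and Kcnq5 of the smooth muscle list, had that order. Kcnmb4 was highest on array 4, and Kcnh7 was lowest on array 1 and highest on array 4. On abdominal high phosphate the list averaged 8.63, 8.76, 8.82 and 8.43 on arrays 1 to 4. Kcnq3 and Kcna1 had that order there, and Kcnq5 had it with arrays 1 and 2 reversed. Kcnn2 was lowest on array 1, Kcnh7 and Kcnh8 were lowest on array 2, and Kcnmb4 was highest on array 2. Kcnab2 read 5.47, 5.67, 5.12 and 5.52, lowest on array 3, where the list was highest. Thoracic high-phosphate array 2 averaged 6.74, against 5.55 and 5.63 for the others of its group. It was also the highest array of that group for Kcnq3, Kcnn2, Kcnh7 and Kcna1, and by a narrow margin for Kcnmb4. For Kcnh8 it was the lowest, at 4.84 against 4.97 and 5.09. With the list mean as a covariate, added after seeing the data, the Kcnq3 difference was 0.55 on chow and 0.23 on high phosphate, and that of Kcna1 -0.02 and -0.12 (adjusted p from 0.936 to 0.996). In those fits 8 and 11 of 22180 genes were called. The list mean did not overlap between the segments, so these fits can hardly separate it from segment. What part the marker genes have in these differences was not tested further, and without detection calls it is unknown whether they were absent from any array.

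**Figure D4:**
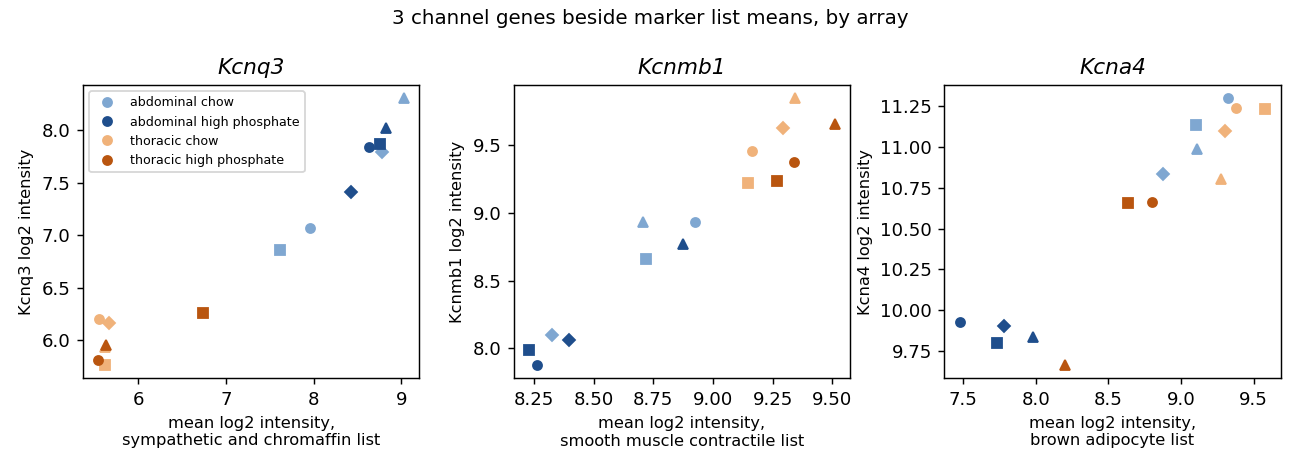
Log2 intensity of 3 channel genes (vertical) against the mean log2 intensity of a marker list (horizontal) on each of 15 arrays, coloured by group, with marker shape giving the replicate number as in the plots by array. Kcnq3 lies beside the sympathetic and chromaffin list, Kcnmb1 beside the smooth muscle contractile list and Kcna4 beside the brown adipocyte list, and the high-phosphate arrays lie to the lower left of the chow arrays in the Kcna4 panel.

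Outside these lists, Kcnj15, an inward rectifier of kidney epithelium, read 5.64, 5.52, 5.58 and 5.49 on abdominal chow and 5.90, 6.02, 6.04 and 5.93 on thoracic chow. High-phosphate arrays read 5.35, 5.41, 5.61 and 5.54 in the abdominal and 5.99, 5.87 and 5.95 in the thoracic segment. The segments were apart on both diets with little spread within groups. Its difference was 0.41 ± 0.0758 and 0.46 ± 0.0819 (adjusted p = 0.00521 and 0.00234, limma), and it stayed called whichever array was left out. Without the 5 abdominal arrays high in lymphocyte genes the adjusted p was 0.0872 and 0.296, and with the contractile mean as covariate 0.443 and 0.789. Kcnn3, a small-conductance calcium-activated channel of endothelium, differed more but was not called. On high phosphate it read 6.62, 6.64, 6.57 and 6.50 in the abdominal and 5.79, 5.92 and 5.90 in the thoracic segment, without overlap (-0.71 ± 0.250, adjusted p = 0.0725, limma). On chow the groups overlapped, since abdominal array 2 read 5.65, and the difference was -0.56 (adjusted p = 0.195).

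On high phosphate 5 further genes were lower in the thoracic segment: the inward rectifier gene Kcnj10, known from glia (-0.55), the voltage-gated Kcnc4 (-0.50), the two-pore Kcnk5 (-0.38) and Kcnk1 (-0.32), and Kcnq1ot1 (-0.26), a noncoding antisense transcript of the imprinted Kcnq1 domain. The adjusted p ran from 0.0199 to 0.0463 (limma). Each of these calls was lost when some single arrays were left out. For Kcnj10 these were abdominal array 1 or 2 and thoracic array 1 or 3 (adjusted p up to 0.122), and for Kcnc4 thoracic array 1 or 2 (0.0749 and 0.0571). For Kcnk1 they were any high-phosphate array other than thoracic array 2 (up to 0.174), and for Kcnq1ot1 any other than abdominal array 3 or thoracic array 1 (up to 0.189). Schwann cell and glial genes (8 measured) averaged 6.71 to 6.99 over the abdominal and 6.17 to 6.55 over the thoracic arrays. Their median segment difference was -0.21 on each diet, with a lowest of -2.70 on chow and -2.68 on high phosphate. On high phosphate 4 of the 8 were called lower (6.25% of all genes were). Their part in the Kcnj10 result was not tested. The Kcnk5 call was lost without abdominal array 1 or 2 or thoracic array 2 or 3 (adjusted p = 0.0580, 0.0635, 0.0611 and 0.0814), and it shares the abdominal high-phosphate arrays with the diet change of Kcnk5. By smallest p, the next genes higher on thoracic chow were Kcnj1, Kcnk13, Kcne1, Kcnf1, Kcnh2 and Kcnj9, which differed by 0.19 to 0.29 and were not called (adjusted p from 0.0743 to 0.283).

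**Figure D5:**
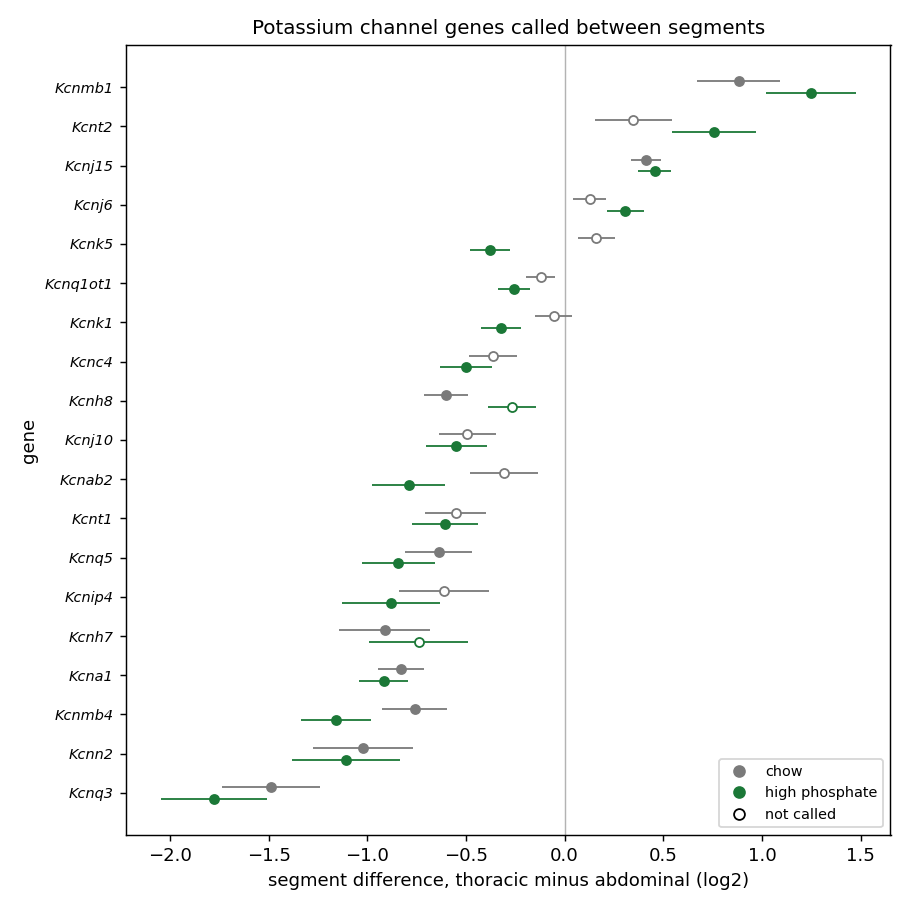
Difference between segments (thoracic minus abdominal, log2) on chow (grey) and high phosphate (green) for the 19 potassium channel genes called on either diet, with bars of 1 SE and open points where not called. Kcnmb1 is highest at 0.88 and 1.25, and Kcnq3 lowest at -1.49 and -1.78.

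Genes that work with these channels were counted from lists of their own. Of 11 channel partners, 1 rose (Abcc9) and 1 fell (Lrrc52, an auxiliary subunit of large-conductance channels, -0.48) over both segments. Of all genes 4.53% rose and 6.18% fell in that comparison. Dpp6, an auxiliary subunit of A-type channels, was lower in the thoracic segment by -1.06 on chow and -1.23 on high phosphate (adjusted p = 0.00558 and 0.00184, limma). Of 16 potassium pump and cotransporter genes, Slc12a2, the sodium-potassium-chloride cotransporter of vascular muscle, fell with diet over both segments (-0.35, adjusted p = 0.00699). Between segments 3 of the 16 were lower in the thoracic segment on each diet (3.02% and 6.25% of all genes were). On high phosphate 2 were higher (7.57%). Those lower were the sodium pump subunit Atp1b1 (-0.75 and -0.77) and the pump regulators Fxyd2 (-1.13 and -1.40) and Fxyd6 (-0.92 and -1.26).

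Of 18 calcium channel genes, 0 were called for diet by limma in the abdominal segment, the thoracic segment or on average. Of all genes 7.01%, 2.47% and 10.7% were. An unadjusted p under 0.05 was reached by 4, 1 and 2 of the 18. Between segments on high phosphate 3 of the 18 were higher (7.57% of all genes were) and 3 lower (6.25%) in the thoracic aorta. Among these, Cacna1c, the pore of the L-type channel of smooth muscle and heart, was higher (0.55, adjusted p = 0.00172), and Cacna2d3, an auxiliary subunit, lower (-1.08, adjusted p = 0.0132). The latter call was lost without thoracic array 1 (adjusted p = 0.0667). On chow Cacna2d3 (-1.30, adjusted p = 0.00534, limma) and 1 other gene were lower (3.02% of all genes were) and 0 were higher (1.76%). Of the 18, 8 had an unadjusted p under 0.05 in limma. The partner genes that were lower in the thoracic segment, Dpp6, Atp1b1, Fxyd2, Fxyd6 and Cacna2d3, differed by -0.21 (Fxyd6 on high phosphate) to 0.85 with the sympathetic and chromaffin mean as covariate, and none was called. As above, these fits can hardly separate that mean from segment. Atp1b1 was not called on chow without abdominal array 4 (adjusted p = 0.0541, limma).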

How the data were processed

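The deposited values are log2 intensities per probe set for 15 arrays. RMA and Partek are listed in the submitters' processing notes, without version, role or order. Which base the logarithm has is not given in the sources used here, and it was taken as 2 from how far the values range. Probe sets that name exactly 1 gene were kept, the brightest per gene by its mean over all arrays, which gave 22180 genes. Groups and replicate numbers were taken from the labels, which call the arrays biological replicates, so p-values measure the spread between these arrays. The model took all arrays as independent, though abdominal and thoracic pieces may share mice, which the labels do not state. One limma model (version 3.58.1 in R 4.3.3, with the data.table package, 1.17.8) with 4 group means and a trended prior gave 6 contrasts on 11 residual degrees of freedom, with Benjamini-Hochberg adjustment over all genes and a threshold of 0.05.

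The members and lists were chosen with earlier results of these data known. The rule for single genes took the smooth muscle genes, every gene called for diet, and the 8 with the smallest p in each direction between segments on chow. Their array values are plotted or printed for the genes the results turn on, and the uncalled ones are otherwise given by range, difference or group mean. Kcnn3 was added after its values were seen. Second probe sets of a gene were tested in a fit of all single-gene probe sets, with p adjusted over these. Other lists were limited to up to 4 genes each with the smallest p. The alternatives were a prior without trend, removal of genes under the 30th percentile, quantile normalization, all single-gene probe sets averaged per gene, the replicate number as a block, only the groups compared, arrays left out singly or by hepatocyte or lymphocyte markers, and marker means as covariates. The contractile and fibroblast covariates, and the sympathetic covariate between segments, were added after seeing the data. In data simulated for 22180 genes, log2 changes of 0.5 were recovered in 53.75% of cases for the abdominal diet change, 42.5% for the thoracic one and 48.75% for each segment difference. Promoter windows come from RefSeq on GRCm38.p6, and figures were drawn with matplotlib 3.10.9. Some potassium channel genes are not reported here.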

Additional observations from a re-analysis of the deposited data

Results flagged for a closer look

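Among the genes given array by array, 78 groups of 4 arrays were searched for a highest or lowest array whose gap to the next was most of the group's range, and 6 held one; chance gives about 1 in 20 groups. Groups of 3 were not tested. In the abdominal high-phosphate group Kcna5 read 6.33 on array 3, against 5.79 to 5.85 on the others, and Kcnk4 read 6.19 on array 3, against 6.45 to 6.46. In the same group array 4 was low for Kcnj2, at 4.92 against 5.14 to 5.18, and for Kcnk5, at 4.87 against 5.12 to 5.16. Arrays 3 and 4 of that group are those with high hepatocyte genes, and whether this bears on the 4 values was not tested. On thoracic chow array 1 was high for Kcnj9, at 5.71 against 5.50 to 5.53, and low for Kcnh7, at 4.60 against 4.75 to 4.78.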

How the results depend on the processing

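Counts of called channel genes moved with several choices, and the cause was not tested except where stated. For the abdominal diet change (2 called) the count was 1 with dim genes removed, where only 60 channel genes were tested, and 1 with only the groups compared. It was 0 without the arrays high in lymphocyte genes, which leaves 1 abdominal high-phosphate array assumed to vary like the others, and 0 with the brown adipocyte or the fibroblast covariate. Leaving out 1 array gave 2 to 5. For the thoracic change (0 called) it was 1 with dim genes removed, with quantile normalization, with the mean of probe sets, with the replicate block and with the fibroblast covariate, and 0 to 1 without single arrays. For the average (5 called) it was 2 without the hepatocyte or the lymphocyte arrays, 0 with the brown adipocyte and 1 with the fibroblast covariate, and 2 to 6 without single arrays. The difference of the diet changes had 0 called in limma throughout. Between segments on chow (9 called) it was 5 with only the groups compared, 5 without the lymphocyte arrays, 1 with the sympathetic and 0 with the contractile covariate, and 4 to 12 without single arrays. On high phosphate (17 called) it was 4 without the lymphocyte arrays, 1 with the sympathetic and 0 with the contractile covariate, and 9 to 19 without single arrays.

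Of 50 called values of single genes, 41 were lost or reversed with the sympathetic covariate and 34 without the lymphocyte arrays, but 1 with the mean of probe sets and 2 with a prior without trend. The contractile covariate was run for the 38 segment values and ended all 38. The brown adipocyte and fibroblast covariates were run for the 12 diet values and ended 12 and 9. The sympathetic and contractile means did not overlap between segments, nor the brown adipocyte mean between diets in either segment. Fits with these covariates can hardly separate them from those contrasts. Signs turned only with covariates. With the sympathetic covariate the differences on chow and high phosphate were 0.69 and 0.46 for Kcnq5, 0.55 and 0.23 for Kcnq3, 1.07 and 0.95 for Kcnn2, 0.30 and 0.10 for Dpp6, 0.62 and 0.58 for Atp1b1, 0.69 and 0.39 for Fxyd2, and 0.66 and 0.85 for Cacna2d3. On chow alone the sign turned for Kcnmb4 (0.38), Kcnh7 (0.85) and Fxyd6 (0.14), and on high phosphate alone for Kcnt1 (0.46), Kcnc4 (0.13), Kcnip4 (0.93), Kcnj10 (0.39) and Kcnk1 (0.24). With the contractile covariate Kcnmb1 (-0.13) and Kcnt2 (-0.43) turned on high phosphate. With the brown adipocyte covariate Kcna4 was 0.18 in the abdominal segment and 0.13 on average, and Slc12a2 0.11 on average.

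With the replicate number as a block 6 genes were called on average, 9 between segments on chow and 15 on high phosphate. The block ended the calls of Kcnk4 on average (adjusted p = 0.0619, limma), Kcnj6 (0.0774) and Kcnk1 (0.0772) between segments on high phosphate, and Abcc9 in the thoracic segment (0.0826). It made calls of Kcnj8 on average (0.0231) and Kcna4 in the thoracic segment (0.0211). Same-numbered arrays of the 2 segments deviated together weakly on each diet, with correlations from 0.03 to 0.12. Between diets in the abdominal segment the correlations ran from -0.25 to 0.40. The labels do not say whether same-numbered abdominal and thoracic pieces came from the same mouse, and the numbers were not treated as pairs. Without detection calls, the signal of dim genes over background is unknown.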

Other observations

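Some potassium channel probe sets name more than 1 gene and were left out of the counts. They were tested apart, with p adjusted over the 1814 probe sets of that kind. The probe set shared by Kcnj13, an inward rectifier, and Gigyf2 was lower in the thoracic segment by -0.38 on chow (adjusted p = 0.0300, limma) and -0.42 on high phosphate (adjusted p = 0.0158). The 2 probe sets shared by Kcnk3, an acid-sensitive leak channel, and Gm9899 changed with diet by -0.20 and -0.12 on average and were not called. A second probe set of Kcna6, a voltage-gated channel of neurons, was lower in the thoracic segment on high phosphate (-0.54, adjusted p = 0.0368).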
